A study of Mus musculus with 8 samples.

Results

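The hyaluronan system of mouse dermal fibroblasts was examined through 10 genes that make, cut or bind this polymer: the synthases Has1, Has2 and Has3, the depolymerising proteins Hyal1, Hyal2 and Cemip, the receptor Cd44, and the hyaluronan-binding matrix proteins Vcan, Tnfaip6 and Hapln1. The genes were chosen by name, with earlier results of these data known, and all 10 were among the 17097 genes that could be tested. Where several probe sets were annotated to a gene alone, the brightest on average across the 8 arrays stood for it. The samples were fibroblasts from 4 old mice, aged 18 months, and from 4 young mice, aged 2 months, with 1 array per animal. The labels name no strain, sex, allele or agent, so age is the only labelled difference between the groups. Cells came from collagenase-digested skin without its subdermis and were sorted as lacking CD45, CD117, CD24, CD31 and EpCam while carrying Pdgfra and CD34. The RNA was amplified as cDNA, starting with 6 ng and running 18 cycles, and was hybridised to Affymetrix perfect-match mouse arrays.

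Hyaluronan is an unbranched sugar polymer of the dermal matrix, built at the plasma membrane by the HAS synthases from the nucleotide sugars UDP-glucuronic acid and UDP-N-acetylglucosamine. It holds water, is cleared by uptake and by hyaluronidases, and turns over quickly in skin. Long chains are organised outside the cell by versican, link proteins and TSG-6 (the product of Tnfaip6), and cells bind them through CD44 and other receptors.

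Array readings of the 10 genes differed little between ages. Of the 10, 1 gene, Has1, was higher in old fibroblasts at an adjusted p under 0.05, none was lower, and 9 did not pass the test (limma over all genes, Benjamini-Hochberg adjustment). Across all 17097 genes, 17.5% passed, 9.87% as higher and 7.66% as lower in old cells, so that 1 of 10 was no more than the background share. By the same fit, 2 of the 10 genes had an unadjusted p under 0.05, both as higher in old cells. The old and young values did not overlap for 1 of the 10 genes, against 21.3% of all genes. The difference, old minus young, was positive for 7 genes and negative for 3, with a median of 0.11 on the log2 scale against 0.01 for all genes. The 95% interval of the difference stayed within a 1.5-fold change in either direction for 8 genes, and within a 2-fold change for all 10. The 8 include Has3 and Hapln1, which read at background level (below), so their narrow intervals do not bound a change. Because these are sorted populations measured in bulk, fewer cells that express a gene and less RNA per cell cannot be told apart.

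**Figure D1:**
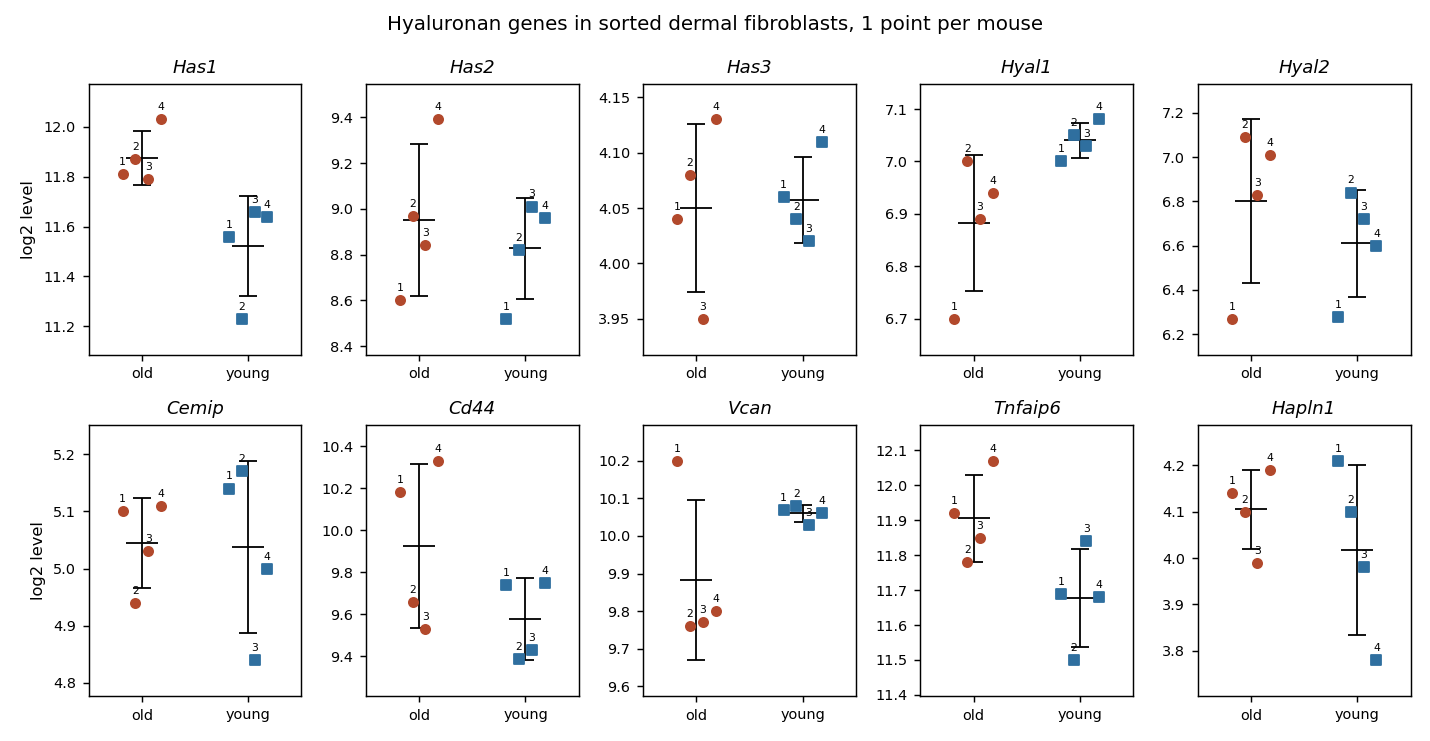
Log2 level (y axis, scaled separately for each gene) of the 10 hyaluronan genes in fibroblasts of old (circles) and young mice (squares), 1 point per mouse with its replicate number, and bars at the mean ± SD (n = 4). The old and young points are fully separated for Has1 alone, and old mouse 4 has the highest level for 5 of the 10 genes.

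**Figure D2:**
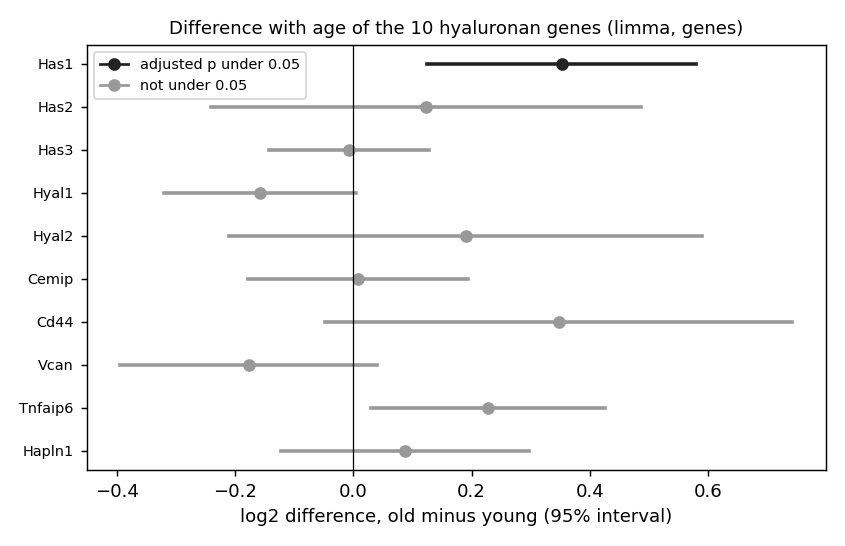
Difference in log2 level between old and young fibroblasts for each of the 10 genes (points), with 95% intervals from limma (lines). Has1 is the only gene drawn in black, for an adjusted p under 0.05, and the intervals of Hyal1, Cd44 and Vcan reach past 0 by little.

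The sorted cells carried fibroblast markers, with limits that touch the values below. Of 11 fibroblast genes, 1 was called, Col3a1 (collagen III, a log2 difference of -0.28, adjusted p = 0.00765), and the brightest, Dcn (decorin), averaged 12.7 in old and 12.8 in young cells. The positive sort markers differed by 0.16 for Pdgfra (adjusted p = 0.307) and by -0.05 for Cd34 (adjusted p = 0.729). None of the 5 excluded markers Ptprc, Kit, Cd24a, Pecam1 and Epcam was called, Cd24a coming nearest (difference -0.67, adjusted p = 0.0515). Of 12 keratinocyte genes, 3 were higher (among them Krt14 by 1.65, adjusted p = 0.00469, and the brightest, Krt5, by 1.04, adjusted p = 0.0379) and 2 lower in old cells, and the mean log2 level of the list was 7.27 to 8.35 in old and 6.70 to 7.76 in young arrays. Endothelial genes had 2 higher and 1 lower of 10 (Tek differed by 1.73, adjusted p = 0.00111, and the brightest, Kdr, by 0.14, adjusted p = 0.869). Lymphatic endothelial genes had 1 higher of 4, Prox1 (0.56, adjusted p = 0.00104), while the brightest, Lyve1, differed by 0.03 (adjusted p = 0.928). Macrophage and leukocyte genes had 2 higher and 1 lower of 13, namely Lyz2 (1.08, adjusted p = 0.00155) and Tyrobp (0.67, adjusted p = 0.0148) as higher, named after their values were seen, and the brightest, Csf1r, as lower (-1.92, adjusted p = 5.90e-06). Of 8 mast cell and melanocyte genes, 1 was lower (Mlana, -0.57, adjusted p = 0.0324), and the brightest, Pmel, differed by -0.09 (adjusted p = 0.555). The lower group means of Prox1 (4.545, young), Lyz2 (4.72, young) and Mlana (4.33, old) lay under 4.74. That value is the 95th percentile of 41 olfactory receptor genes, so the sizes of these differences are uncertain. No gene was called among 4 of adipocytes (Plin4, 0.22, adjusted p = 0.204), 9 of muscle, pericytes and Schwann cells (Acta2, 0.72, adjusted p = 0.0502) and 15 of dissociation stress (Btg2, 0.27, adjusted p = 0.0524, and the brightest, Egr1, 0.04, adjusted p = 0.725). Non-specific control probe sets were dimmer in every old array (mean log2 signal 5.53 to 6.18) than in any young array (6.34 to 6.62), a gap of -0.61. The parts of the keratinocyte genes and of this background signal in the differences below were not tested. Where a fit with the background signal as a covariate ended the call of a gene named below as part of the hyaluronan system, its value is given. Since that signal did not overlap between ages, the fit separates age from it poorly. Over all 17097 genes it called 68 as higher and 99 as lower, against 1688 and 1310 without the covariate. A call lost in that fit therefore cannot tell an age difference from one of background.

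Among the synthases, Has1 was the gene that rose. Its log2 level was 11.81, 11.87, 11.79 and 12.03 in the 4 old mice, against 11.56, 11.23, 11.66 and 11.64 in the 4 young mice. Every old value lay above every young value, young mouse 2 was the lowest and old mouse 4 the highest. The means were 11.88 ± 0.11 in old and 11.52 ± 0.20 in young cells (SD, n = 4 each), a difference of 0.35 (SE 0.10, 95% interval 0.12 to 0.58), or 1.28-fold, with an adjusted p of 0.0398 in limma. In the separate fit over all 45141 probe sets, where 13.1% were called, the same probe set had an adjusted p of 0.05004 and missed the threshold. The difference kept its sign without any 1 array (0.26 to 0.40), but the call was lost when any of 6 of the 8 arrays was left out, all but young 3 and young 4, with an adjusted p up to 0.0998. With the background signal as a covariate the difference was 0.36 and the adjusted p 0.544.

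Has2, the synthase most studied in dermal fibroblasts, varied more within each age than between them. It had log2 levels of 8.60, 8.97, 8.84 and 9.39 in old mice, against 8.52, 8.82, 9.01 and 8.96 in young mice. Mouse 1 was the lowest of each group, and old mouse 4 stood above all other arrays. The difference was 0.12 (SE 0.16, 95% interval -0.24 to 0.49, adjusted p = 0.680), and it was -0.02 without old mouse 4. The other Has2 probe set gave 0.18 (adjusted p = 0.573 over probe sets).

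Has3, the third synthase, was read at 4.04, 4.08, 3.95 and 4.13 in old mice, against 4.06, 4.04, 4.02 and 4.11 in young mice, with a difference of -0.01 (95% interval -0.14 to 0.13, adjusted p = 0.954). These readings sat at the level of genes that fibroblasts are not known to use: 41 olfactory receptor genes had a median of 4.00 and a 95th percentile of 4.74. A change in Has3 was therefore not detectable at this signal. The gap between Has1 and Has2 within each array was 3.21, 2.90, 2.95 and 2.64 in old mice, against 3.04, 2.41, 2.65 and 2.68 in young mice. Its mean was greater by 0.23 in old mice and the groups overlapped.

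Over the 8 arrays, the genes whose profiles lay closest to that of Has1 were Lemd3, Aopep and Iigp1, by root mean square difference of centred log2 values (0.039, 0.046 and 0.051). Lemd3 encodes an inner nuclear membrane protein, Aopep an aminopeptidase and Iigp1 an interferon-inducible GTPase. Their differences between ages were 0.32 for Lemd3 (adjusted p = 0.0796), 0.41 for Aopep (adjusted p = 0.0238) and 0.42 for Iigp1 (adjusted p = 0.0124). These genes were picked for closeness to Has1 over the same arrays, so differences near that of Has1 follow from the choice.

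The promoters of Has1 and Tnfaip6 are shown because these were the genes with an unadjusted p under 0.05. Each line is the 250 bases before a transcription start in the RefSeq promoter table on GRCm38.p6, Has1 at chr17:17855189-17855438 on the minus strand and Tnfaip6 at chr2:52037863-52038112 on the plus strand. The Has1 window lies inside the span of the RefSeq gene record, which reaches further upstream than this start, and whether it is exon or intron of a longer transcript was not analysed here. Capitals mark a cAMP response element (CRE, TGACGTCA) in Has1 and an AP-1 element (TGANTCA) in Tnfaip6, which begin 83 and 142 bases before those starts.
Has1: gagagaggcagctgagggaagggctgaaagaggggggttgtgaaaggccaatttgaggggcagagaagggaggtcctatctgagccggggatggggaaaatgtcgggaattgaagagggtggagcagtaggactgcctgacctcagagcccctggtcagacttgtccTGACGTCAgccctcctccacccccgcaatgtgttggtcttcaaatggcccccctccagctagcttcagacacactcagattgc
Tnfaip6: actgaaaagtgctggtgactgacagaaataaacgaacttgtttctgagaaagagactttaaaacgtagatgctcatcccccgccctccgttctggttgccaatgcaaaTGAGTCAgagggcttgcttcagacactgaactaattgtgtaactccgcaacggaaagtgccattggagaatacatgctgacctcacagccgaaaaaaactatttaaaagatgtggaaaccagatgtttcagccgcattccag

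The motifs were searched on both strands of 32851 RefSeq promoter windows of the same length, and the letters of the CRE and AP-1 motifs do not match each other. Of all windows, 1.55% held the CRE letters and 6.75% the AP-1 letters. Sequences were at hand for 8 of the 10 genes, all but Has2 and Has3, and each motif was found in 1 of the 8. The letters TATAAA, in 12.4% of all windows, were found only in Cemip among the 8 genes, 29 bases before the start in the table, at a position that also lies inside the span of the RefSeq gene record. A match describes letters and not a bound site.

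None of the 3 depolymerising proteins passed the test. Hyal1, a lysosomal hyaluronidase, was read at 6.70, 7.0, 6.89 and 6.94 in old mice, against 7.0, 7.05, 7.03 and 7.08 in young mice. Old mouse 2 equalled the lowest young value and the other old mice lay below all young ones. The difference was -0.16 (SE 0.07, 95% interval -0.32 to 0.01, adjusted p = 0.181), and it passed when the deposited values were quantile-normalised again (-0.21, adjusted p = 0.0368). Without old mouse 1 it was -0.10 (adjusted p = 0.331).

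Hyal2, a hyaluronidase anchored at the cell surface that cuts long chains into fragments, had log2 levels of 6.27, 7.09, 6.83 and 7.01 in old mice, against 6.28, 6.84, 6.72 and 6.60 in young mice. Mouse 1 was far below the others in both groups. The difference of 0.19 (95% interval -0.21 to 0.59, adjusted p = 0.540) was smaller than the SD among old mice, 0.37. It was 0.08 without young mouse 1 and 0.37 without old mouse 1 (adjusted p = 0.0866). Hyal1 and Hyal2 share chromosome 9 in the RefSeq annotation.

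Cemip, a protein that skin fibroblasts use to degrade hyaluronan in humans, was at 5.10, 4.94, 5.03 and 5.11 in old mice, against 5.14, 5.17, 4.84 and 5.0 in young mice. The groups overlapped throughout, with a difference of 0.01 (95% interval -0.18 to 0.19, adjusted p = 0.966) whose sign changed between alternative scalings. Its 2 other probe sets gave 0.10 and 0.07, and neither was called. Both read under 4.00, the median of the olfactory receptor genes, so they could not show a change. The main probe set averaged 5.04, not far above the 95th percentile of those genes, 4.74.

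The receptor Cd44 was split within each age, with mice 1 and 4 above mice 2 and 3. Old mice 1 and 4 had log2 levels of 10.18 and 10.33, above every young value, while old mice 2 and 3, at 9.66 and 9.53, lay among the young values of 9.74, 9.39, 9.43 and 9.75. The difference of 0.35 (SE 0.18, 95% interval -0.05 to 0.74, adjusted p = 0.223) had the size of that for Has1 but a wider spread. The 4 Cd44 probe sets gave 0.35, 0.16, 0.30 and 0.31, all positive and none called in the fit over probe sets without a block. With the replicate number as a block, Cd44 passed in limma (adjusted p = 0.0321), but the numbers were not taken as pairs. The background covariate turned the difference to -0.11. It was 0.21 without old mouse 4 (adjusted p = 0.446). The mean keratinocyte level was 7.27, 7.55, 7.85 and 8.35 in old mice 1 to 4, and its part in the Cd44 values was not tested.

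Versican, the large proteoglycan encoded by Vcan that binds hyaluronan through its head domain, was lower in 3 of 4 old mice. Its log2 level was 10.20, 9.76, 9.77 and 9.80 in old mice, against 10.07, 10.08, 10.03 and 10.06 in young mice. Old mouse 1 was above all young mice and the other old mice were below all of them. With all 8 arrays the difference was -0.18 (SE 0.10, 95% interval -0.40 to 0.04, adjusted p = 0.260), and without old mouse 1 it was -0.28 with an adjusted p of 0.00919. It did not pass when any other array was left out (differences as small as -0.14, adjusted p up to 0.466).

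Vcan had 5 probe sets, whose differences were -0.18, -0.02, -0.21, -0.26 and -0.56. The last was called (limma over probe sets, adjusted p = 0.0210) and was the only call among the 21 probe sets of the 10 genes, against 13.1% of all probe sets. It read 4.58, 4.28, 4.19 and 4.02 in old mice, against 4.95, 4.64, 4.67 and 5.03 in young mice, with no overlap. These are dim readings, and a second probe set made from the same cDNA clone gave -0.26 and was not called (adjusted p = 0.353). Leaving out any 1 of young 1, young 4, old 2, old 3 and old 4 ended this call.

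**Figure D3:**
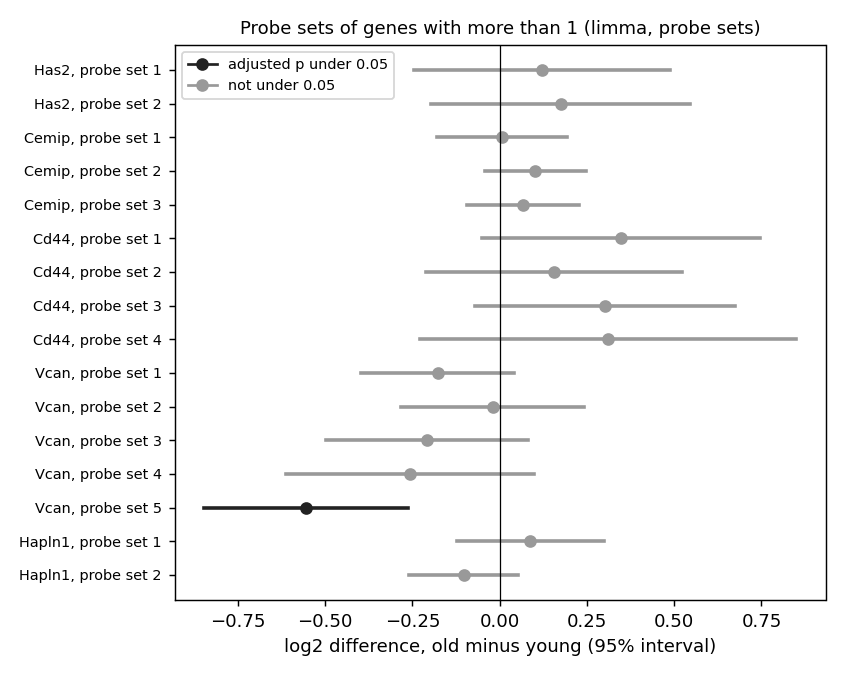
Difference in log2 level between old and young fibroblasts (points) with 95% intervals (lines) for every probe set of the 5 genes that had more than 1, from the fit over all probe sets. The 4 Cd44 probe sets all lie right of 0, the 5 Vcan probe sets all lie left of 0, and only the fifth Vcan probe set (black, -0.56) was called.

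Tnfaip6 encodes TSG-6, which transfers heavy chains of inter-alpha-inhibitor onto hyaluronan. It was read at 11.92, 11.78, 11.85 and 12.07 in old mice, against 11.69, 11.50, 11.84 and 11.68 in young mice. The groups overlapped by young mouse 3, which exceeded old mouse 2. The difference was 0.23 (SE 0.09, 95% interval 0.03 to 0.43), with an unadjusted p of 0.0283 and an adjusted p of 0.113 in limma. Has1 and Tnfaip6 both read close to the top of the scale, where the highest value of the table was 13.04 and array summaries compress differences.

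Hapln1, a link protein that fixes versican to hyaluronan, read 4.14, 4.10, 3.99 and 4.19 in old mice, against 4.21, 4.10, 3.98 and 3.78 in young mice. The difference was 0.09 (95% interval -0.12 to 0.30, adjusted p = 0.596), the other probe set gave -0.10, and both sat among the readings of olfactory receptor genes. Vcan and Hapln1 share chromosome 13 in the RefSeq annotation.

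Genes that supply the sugar precursors were called in both directions. Of 13 measured genes of UDP-glucuronic acid and UDP-N-acetylglucosamine supply, 5 were higher in old cells, 1 was lower and 7 did not pass, with a median difference of 0.08 against 0.01 for all genes. Over all genes 17.5% were called, 9.87% as higher and 7.66% as lower. Ugdh, which makes UDP-glucuronic acid, had log2 levels of 10.66, 10.50, 10.46 and 10.88 in old mice, against 9.99, 9.81, 9.98 and 10.02 in young mice. The groups were far apart relative to their spread, with a difference of 0.68 (SE 0.10, 1.60-fold, adjusted p = 0.00135 in limma).

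The 2 genes for the first, rate-limiting enzyme of the hexosamine pathway, GFAT, moved in opposite directions. Gfpt2 read 11.31, 11.52, 11.39 and 11.69 in old mice, against 10.65, 10.79, 11.02 and 10.92 in young mice, a rise of 0.63 (SE 0.10, adjusted p = 0.00261). Gfpt1 read 8.84, 9.09, 9.04 and 9.22 in old mice, against 9.62, 9.62, 9.74 and 9.69 in young mice, and fell by 0.62 (SE 0.08, adjusted p = 8.77e-04). No old value overlapped a young value in either gene.

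The difference between the Gfpt2 and Gfpt1 readings within an array was 2.47, 2.43, 2.35 and 2.47 in old mice, against 1.03, 1.17, 1.28 and 1.23 in young mice. Its mean was greater by 1.25 in old cells, given as a description with no test, since the pair was picked for the opposite directions of its genes. The 2 probe sets are not on a common scale, so the size of the within-array difference carries no meaning and only its shift between ages does.

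Renbp, which converts between N-acetylglucosamine and N-acetylmannosamine, was higher by 0.53 in old cells (adjusted p = 0.00544). The other higher genes, Gnpnat1 and Uap1, are named because they complete the count: they act between GFAT and UDP-N-acetylglucosamine and differed by 0.34 (adjusted p = 0.00730) and 0.45 (adjusted p = 0.0234). The Uap1 call was lost without young 1 or young 2 (adjusted p up to 0.0660). The mean over all Uap1 probe sets gave 0.84 (adjusted p = 0.00265) and the probe set of highest SD 1.05 (adjusted p = 0.00438), while the mean over all Gnpnat1 probe sets gave 0.07 (adjusted p = 0.549). None of these 6 genes was called with the background signal as a covariate, where the differences were 0.52 for Ugdh, 0.56 for Gfpt2, -0.52 for Gfpt1, 0.59 for Renbp, 0.42 for Gnpnat1 and 0.39 for Uap1 (adjusted p of 0.198 to 0.566). Uap1, Ugdh, Gfpt2 and Renbp were highest in old mouse 4, which also had the highest keratinocyte level. Gnpnat1 was lowest in old mouse 4 among the old mice, at 6.98, 7.11, 7.12 and 6.94 in old mice 1 to 4. The part of the keratinocyte level in these values was not tested.

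**Figure D4:**
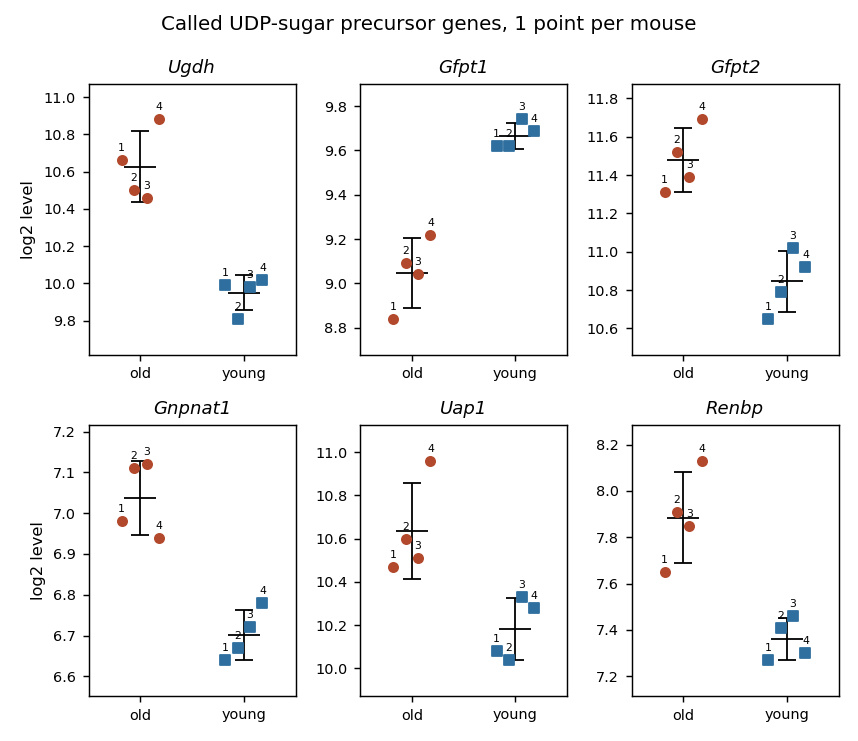
Log2 level (y axis, scaled separately for each gene) of the 6 called genes of UDP-sugar supply in old (circles) and young (squares) mice, 1 point per mouse with its replicate number, and bars at the mean ± SD (n = 4). The old points lie wholly above the young points in Ugdh, Gfpt2, Gnpnat1, Uap1 and Renbp, and wholly below them in Gfpt1.

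Of 8 other hyaluronidases and hydrolases of the last degradation steps, 1 was called, as lower (12.5% called, against 17.5% of all genes), with a list median of -0.05. This was Hexa, a subunit of lysosomal hexosaminidase, at 11.41, 11.54, 11.49 and 11.28 in old mice, against 11.68, 11.58, 11.75 and 11.73 in young mice. It fell by 0.26 (adjusted p = 0.0392), and the call was lost in 6 of the 8 fits without 1 array (without any but young 2 and old 2, adjusted p up to 0.105). With the background covariate it was -0.17 (adjusted p = 0.752). The 7 others did not pass, Cemip2, a membrane hyaluronidase related to Cemip, differing by -0.11 (adjusted p = 0.648).

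Among 9 other receptors and uptake proteins, 2 were higher, 1 was lower and 6 did not pass (33.3% called, against 17.5% of all genes), with a list median of 0.10. Tlr4, a pattern receptor that also responds to hyaluronan fragments, had log2 levels of 7.90, 7.32, 7.29 and 7.56 in old mice, against 6.08, 6.29, 6.28 and 6.28 in young mice. No old value overlapped a young value, and the difference was 1.29 (SE 0.13, 2.44-fold, adjusted p = 1.84e-04). The mean over all Tlr4 probe sets gave a smaller difference, 0.86 (adjusted p = 9.06e-04). Layn, the membrane lectin layilin, read 7.91, 7.66, 7.48 and 7.91 in old mice, against 6.48, 6.69, 6.98 and 6.74 in young mice, a rise of 1.02 (SE 0.13, 2.02-fold, adjusted p = 5.76e-04).

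Tlr2, the related receptor, went the other way. It read 8.01, 8.28, 7.87 and 8.27 in old mice, against 8.72, 8.24, 8.68 and 8.56 in young mice, with old mice 2 and 4 just above young mouse 2. The difference was -0.44 (SE 0.13, adjusted p = 0.0375), and leaving out any 1 of young 1, young 3, young 4, old 1 and old 3 ended the call (highest adjusted p 0.1003). With the background covariate it was -0.46 (adjusted p = 0.533). Tlr4 and Layn kept their calls without any 1 array and lost them with the background covariate (differences 0.75 and 0.57, adjusted p = 0.0687 and 0.219). Of the 13 macrophage and leukocyte genes, 12 differences were positive and 1 negative, with Lyz2 and Tyrobp called higher and Csf1r lower. The mean level of that list was 5.07 to 5.13 in old and 4.97 to 5.10 in young arrays, and its part in the Tlr4 and Tlr2 values was not tested.

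Of 5 other hyalectans and link proteins, 1 was lower, close to the 17.5% called over all genes, and the list median was -0.18. Hapln4, a link protein known from brain, read 5.50, 5.18, 5.36 and 5.67 in old mice, against 6.31, 6.42, 6.39 and 6.30 in young mice, a difference of -0.93 (SE 0.10, adjusted p = 2.57e-04). It stayed called with the background covariate (-1.08, adjusted p = 0.0452). Of 12 genes for heavy chains and matrix cross-linkers, 1 was lower (8.33% called, under the share of all genes) and the list median was 0.09. Fbn2 (fibrillin-2, a microfibril protein of growing tissue that binds versican) read 4.70, 4.59, 4.44 and 4.89 in old mice, against 5.88, 5.05, 5.75 and 5.43 in young mice, a difference of -0.87 (SE 0.17, adjusted p = 0.00656). The old mean of 4.66 was under the 4.74 that marks the 95th percentile of olfactory receptor genes, so the old level was not distinguished from background and the size of the difference is uncertain. With the background covariate it was -0.84 and not called (adjusted p = 0.35).

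Of 10 versican-cleaving proteases, 1 was higher and 1 lower, close to the 17.5% called over all genes, and the list median was -0.0025. Adamts5, a versican- and aggrecan-cleaving protease, was at 10.95, 10.62, 10.57 and 10.67 in old mice, against 10.24, 10.34, 10.44 and 10.36 in young mice (difference 0.36, SE 0.09, adjusted p = 0.0215). Its call was lost without young 1 or young 2 (adjusted p up to 0.0551) and with median centring (0.33, adjusted p = 0.0513). With the background covariate the difference was 0.04 (adjusted p = 0.956). Mmp2, gelatinase A, was at 11.34, 12.07, 12.13 and 11.65 in old mice, against 12.42, 12.37, 12.42 and 12.37 in young mice (difference -0.60, SE 0.15, adjusted p = 0.0245). The young Mmp2 values lay close together and the old values were widely spread. Its call was lost without any of the 4 young mice or old mouse 4 (adjusted p up to 0.0682), and the background covariate left a difference of 0.01 (adjusted p = 0.993).

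Of 12 genes for proteins that link CD44 to the cytoskeleton, shed it or bind it, 2 were higher and 2 lower (33.3% called, against 17.5% of all genes), with a list median of 0.18. Srgn, the core protein of the proteoglycan serglycin, was higher by 0.71 (SE 0.08, adjusted p = 5.05e-04), and Ezr (ezrin, which ties CD44 to actin) by 0.50 (SE 0.12, adjusted p = 0.0171). The young Ezr mean of 4.76 was near the 4.74 that marks the 95th percentile of olfactory receptor genes. The size of the Ezr difference is therefore uncertain. Mmp14, a membrane protease that sheds CD44, was lower (difference -0.31, SE 0.08, adjusted p = 0.0229), and Lgals9 (galectin-9, a CD44 ligand) was lower too (difference -0.26, SE 0.06, adjusted p = 0.0172). The Mmp14 call was lost without young 1 or young 3 (adjusted p up to 0.0609). With the background covariate none of these 4 was called, at 0.68 for Srgn, 0.76 for Ezr, -0.08 for Mmp14 and -0.13 for Lgals9 (adjusted p of 0.119 to 0.895). The other ezrin-family genes Msn and Rdx, at 0.18 each, did not pass.

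Enzymes that build the chondroitin sulfate chains of versican were mostly lower. Of 13 measured, 7 were lower and 1 was higher in old cells, 5 did not pass, and the median difference was -0.33. Of all genes, 7.66% were called lower and 9.87% higher. Chpf, a chondroitin polymerising factor, had log2 levels of 8.72, 8.32, 8.51 and 8.58 in old mice, against 9.67, 9.59, 9.73 and 9.76 in young mice, a difference of -1.16 (SE 0.09, adjusted p = 3.96e-05). The gap between the groups was wider than the range within either, and Chpf stayed called with the background covariate (-1.30, adjusted p = 0.0127).

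The related factor Chpf2 was at 6.35, 6.87, 7.16 and 6.78 in old mice, against 7.45, 7.38, 7.60 and 7.66 in young mice (difference -0.73, SE 0.15, adjusted p = 0.00819). Chst12, a sulfotransferase, was at 8.69, 8.70, 8.70 and 8.48 in old mice, against 9.38, 9.14, 9.20 and 9.23 in young mice (difference -0.60, SE 0.08, adjusted p = 7.61e-04). B4galt7, which adds the first galactose of the linker, was at 8.54, 8.25, 8.55 and 7.95 in old mice, against 8.99, 8.86, 8.94 and 8.92 in young mice (difference -0.61, SE 0.12, adjusted p = 0.00841). No old value overlapped a young value in these 3 genes. All 3 lost their calls with the background covariate, at -0.16 for Chpf2 (adjusted p = 0.858), -0.48 for Chst12 (adjusted p = 0.200) and -0.48 for B4galt7 (adjusted p = 0.479). Several of these enzymes serve chains on other proteoglycans too.

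Of 21 growth factors and receptors known to induce hyaluronan synthases in cultured fibroblasts, 4 were higher and none lower, and the list median was 0.13. The share called, 19.05%, was close to the 17.5% of all genes. Osmr, the oncostatin M receptor, was at 10.07, 9.96, 9.54 and 10.31 in old mice, against 8.65, 8.67, 8.93 and 9.01 in young mice, a rise of 1.16 (SE 0.15, 2.23-fold, adjusted p = 8.35e-04). Tgfb2 was higher by 0.57 (SE 0.10, adjusted p = 0.00408), its receptor Tgfbr1 by 0.56 (SE 0.11, adjusted p = 0.00755) and the interleukin-1 receptor Il1r1 by 0.46 (SE 0.06, adjusted p = 0.00107). The mean over all Tgfbr1 probe sets gave 0.31 and missed the threshold (adjusted p = 0.0507). With the background covariate none of the 4 was called, at 0.62 for Osmr, 0.45 for Tgfb2, 0.49 for Tgfbr1 and 0.40 for Il1r1 (adjusted p of 0.208 to 0.415). Il6, at 9.86, 10.02, 9.87 and 10.62 in old mice and 9.47, 9.25, 9.97 and 9.73 in young mice, did not pass (adjusted p = 0.117) and is named after its values were seen.

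Over all 9 wider lists, 15 of 103 measured genes were higher and 15 lower in old cells, with a median difference of 0.03. That is 29.1% called, against 17.5% of all genes. No conclusion is drawn from the excess, since the lists were chosen with earlier results of these data known. With dim genes left out, 1550 of 8548 genes of the series were higher and 1139 lower, a larger share than over all genes. In the wider lists that filter gave 14 higher and 13 lower. The share of higher genes among all calls in the series was 56.3%, and it was 45.2% when the deposited values were quantile-normalised again, so the balance of directions moves with scaling. In that fit the wider lists had 15 genes higher and 20 lower. With the background covariate 0 genes of the wider lists were higher and 2 lower, Chpf and Hapln4. The same covariate fit called 68 of all 17097 genes as higher and 99 as lower.

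**Figure D5:**
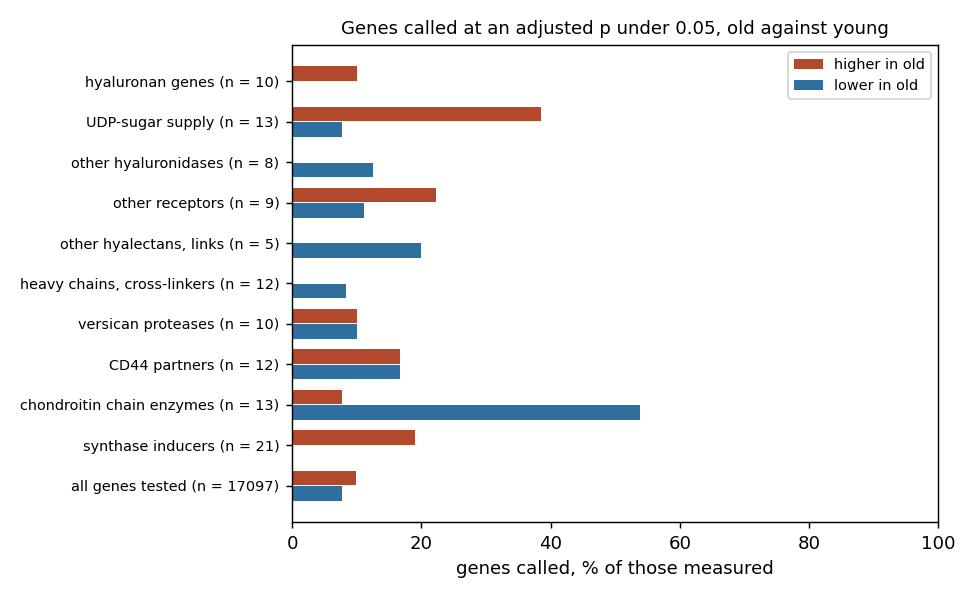
Share of measured genes called at an adjusted p under 0.05 (x axis, percent) as higher (upper bar) or lower (lower bar) in old fibroblasts, for the 10 hyaluronan genes, the 9 wider lists and all 17097 genes. The bar for higher genes is longest in UDP-sugar supply (5 of 13), and the bar for lower genes is longest in chondroitin chain enzymes (7 of 13).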

How the data were processed

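Per the submitters' processing notes, the authors used RMA and the R package affy, versions not given; the deposited log2 values are probe set summaries, rounded to 2 decimals. RMA equalises the array distributions, so a shift common to most transcripts would not show, and differences are compressed at both ends of the scale. Of 45141 probe sets, the platform annotation given here names 1 gene for 28898, several for 551 and none for 15692; the last 2 classes were left out of the gene fit. Array medians were 5.19 to 5.34. Correlations between arrays were 0.992 to 0.997 among old, 0.994 to 0.997 among young and 0.983 to 0.990 across ages.

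Old was compared with young by limma 3.58.1 (lmFit, eBayes, 2-sided, no covariate) in R 4.3.3, with Benjamini-Hochberg adjustment and a threshold of 0.05; the script was tested on simulated data. The 4 arrays per age are separate animals, and their number limits the precision. Figures used Python 3.11.15 and matplotlib 3.10.9. Background signal is the mean of non-specific control probe sets with 18 to 25 G and C bases. Members and lists were chosen with earlier results of these data known. All members were named. Up to 4 called genes per wider list, by size of difference, were named, as were the 3 profiles nearest to Has1, the sort markers, and the brightest gene and the gene of smallest p of each marker list. Mice were collected as 1 old and 1 young per day, but the labels tie no number to a day. Deviations of same-numbered mice correlated at 0.32, 0.00057, -0.10 and 0.25, so numbers were not taken as pairs. Alternatives were other scalings, probe set choices, a filter on dim genes, trend and robust eBayes, array weights, the replicate number as a block, a threshold of 0.01 and leaving out each array; the background covariate, the probe set alternatives and those for Gfpt2 minus Gfpt1 were added after seeing the data.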

Additional observations from a re-analysis of the deposited data

Results flagged for a closer look

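Among 36 named genes in 2 age groups (72 groups of 4 mice), 5 groups had 1 mouse far from the other 3 by Dixon's test, where chance alone flags about 1 group in 20. One was a hyaluronan gene: Vcan in old mouse 1 read 10.20, against 9.76 to 9.80 in the other old mice. Tlr4 in young mouse 1 read 6.08, with the other young mice at 6.28 to 6.29. Mmp14 in old mouse 1 read 11.23, with the other old mice at 11.43 to 11.46. Lgals9 in young mouse 1 read 8.93, with the others at 8.86 to 8.87. Chst12 in old mouse 4 read 8.48, with the others at 8.69 to 8.70.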

How the results depend on the processing

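Of the 10 hyaluronan genes, the count called higher was 1 and became 2 with the replicate number as a block, 0 with array weights, 0 with the background covariate, 0 at a threshold of 0.01 and 0 to 1 without 1 array. The count called lower was 0 and became 1 after quantile normalization again, 1 with the probe set of highest SD, 1 with array weights and 0 to 1 without 1 array. Has1 differed by 0.30 with array weights and 0.36 with the covariate, neither called, and by 0.26 to 0.40 without 1 array. Cd44 differed by 0.35 and was called with the replicate block (adjusted p = 0.0321), and by -0.11 with the covariate. The block also ended the calls of Tlr2 (adjusted p = 0.0557), Hexa (adjusted p = 0.0712) and Mmp14 (adjusted p = 0.0502). Of the 4 old arrays, 2 correlated best with the young array of their own number. Hyal1 was called after quantile normalization again (-0.21). Vcan was called with the probe set of highest SD (-0.56), with array weights (-0.24) and without old mouse 1 (range without 1 array -0.28 to -0.14). Signs turned for Cemip with median centring (-0.018), quantile normalization again (-0.0038), the covariate (-0.022) and without 1 array (-0.058 to 0.052), for Hapln1 with the mean of its probe sets (-0.0075), for Has2 without 1 array (-0.024 to 0.24), for Has3 without 1 array (-0.034 to 0.026) and for Mmp2 with the covariate (0.014). None of these sign changes passed the test. Among member probe sets, 0 were called higher in the fit over probe sets, 2 with the block and 1 with trend and robust settings; 1 was called lower, 2 after quantile normalization again and 0 to 2 without 1 array. Of the wider genes, 0 were higher and 2 lower with the covariate, against 68 and 99 of all 17097 genes. At a threshold of 0.01, 8 wider genes were lower. The Gfpt2 minus Gfpt1 shift was 1.14 over the mean of probe sets and 1.47 with the probe sets of highest SD. The filter on dim genes left no value for Has3, Cemip and Hapln1. Scaling moved the median of all genes by less than 0.1. The cause of these changes was not tested.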
